A study of Mus musculus with 117 samples.

Results

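The regions described here are 574 sites that Oct4, Sox2 and Klf4 occupied together in reprogramming fibroblasts depleted of Ubc9, and where none of the 3 factors had a called peak in the control cells. A site was an Oct4 peak of the depleted cells that overlapped, by at least 1 bp, both a Sox2 and a Klf4 peak of the depleted cells and no Oct4, Sox2 or Klf4 peak of the control cells. The 574 depletion-only sites were 2.44% of the 23477 Oct4 peaks of the depleted cells (exact 95% binomial interval 2.25% to 2.65%) and 3.60% of the 15955 Oct4 peaks there that met Sox2 and Klf4 (3.31% to 3.90%). These intervals, and all that follow for shares, are exact Clopper-Pearson intervals and cover counting error alone. The 6 factor lists chose the sites, so the presence or absence of the factors at them is a description and no finding.

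The study followed mouse embryonic fibroblasts (MEF), of stage E13.5, on the way to pluripotency. The cells called D4 were MEF that had expressed Oct4, Klf4, Sox2 and Myc (OKSM) for 4 days, with either a control short hairpin RNA (shCtrl) or one against Ubc9 (shUbc9), and both D4 groups expressed the factors. Wild-type MEF and wild-type embryonic stem cells (ES) gave the chromatin of the start and of the pluripotent state, and ES cells were also treated with a small interfering RNA against Ubc9 (siUbc9) or its control (siCtrl). Of the 117 samples of the series, the chromatin immunoprecipitations, 2 replicates each and merged by the authors into 1 peak list per antibody and condition, and the D4 RNA libraries, 3 per group, are used here. The labels name neither the promoter or vector that expressed the factors or the hairpins nor any clone, and they do not say whether replicates were separate cultures. The p-values for RNA therefore measure only the spread between libraries. With 1 merged list per condition, no comparison of peaks carries a replicate test, and the sequencing depth of the immunoprecipitations is unknown from the lists.

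Oct4 and Sox2 are transcription factors that bind DNA side by side at many enhancers of pluripotent cells, and Klf4 is a zinc finger factor that joins them at a large share of these. During reprogramming the factors first occupy many enhancers already open in fibroblasts, while many enhancers of pluripotent cells lie in closed chromatin and are engaged later or inefficiently. Ubc9 is the E2 enzyme that conjugates the small protein SUMO to its substrates, among them transcription factors and chromatin proteins, and SUMO is known as a modifier that often accompanies repression. Among the marks measured, H3K27ac lies at active enhancers and promoters, H3K4me1 at enhancers, H3K4me3 at promoters, H3K27me3 at genes silenced by Polycomb and H3K9me3 at heterochromatin.

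The depletion-only sites were one end of a range. Of the 15955 sites with all 3 factors in depleted cells, 8831 overlapped all 3 control factor lists, 4056 overlapped 2 of them and 2494 overlapped 1. The 8831, present in all 6 lists, are called shared sites below. Among the 2494 sites with 1 control factor that factor was Klf4 at 2082 (83.5%), Oct4 at 258 and Sox2 at 154, so the binding most often called alone in control cells at such sites was that of Klf4. The control Klf4 list was also the longest, with 34163 peaks against 16740 for Oct4 and 20197 for Sox2. The part of list length in this count was not tested. The mirror image, an Oct4 peak of control cells that met Sox2 and Klf4 there and no factor peak of the depleted cells, was found at 64 control-only sites, 0.603% of the 10619 three-factor sites of control cells (0.464% to 0.769%).

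List length moved these counts strongly. The depleted lists were longer, with 23477 Oct4, 27514 Sox2 and 37505 Klf4 peaks against 16740, 20197 and 34163 in control cells. When each pair of lists was trimmed by score to the length of the shorter, 248 depletion-only sites were left and the control-only sites numbered 194. Only the depleted lists were cut by this, so the 248 had to be among the 574 and the control-only count could not fall. When the lists that call the sites were reduced to their better-scoring part, the upper 50%, while the opposing lists stayed whole, 28 and 2 sites were left. Whether the longer lists come from more binding or from deeper or cleaner libraries cannot be told apart in these files.

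At the edge of the rule, 7 of the 574 sites lay within 100 bp of a control factor peak. The closest were chr17:29201708-29203484 at 62 bp, chr8:73121824-73122882 at 67 bp and chr10:70808936-70809359 at 76 bp (all positions on mm9). Just outside, 3 of the 15381 three-factor sites that did overlap a control peak were covered by such peaks over at most 100 bp. These were chr7:29074510-29075408 with 10 bp covered, chr2:180514872-180515331 with 43 bp and chr17:32035011-32036630 with 84 bp. Most sites were far from this edge: the nearest control factor peak lay at a median of 11254 bp (middle 50% of sites, 3269 to 32138 bp), 44 sites had one within 500 bp, and 96 had none within 50000 bp.

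The depletion-only sites were narrow peaks of middling to low score. Ranks are given as the percent of the way down a list ordered by the authors' score, with 0 the strongest peak. The median rank of the 574 sites was 51.0 in the depleted Oct4 list (middle 50%, 31.4 to 71.9), 67.1 in the Sox2 list (51.8 to 83.7) and 68.7 in the Klf4 list (54.0 to 84.4). The same medians for the shared sites were 29.6, 30.0 and 20.9. For the sites with 1 control factor they were 59.7, 67.1 and 34.7. Against that set, only Klf4 ranked weaker at the depletion-only sites. At the depletion-only sites Oct4 ranked higher than its partners did, although the 3 lists differ in length and the ranks are relative to each. The rule chose the sites from these same lists and left out any site with a control peak. The control Klf4 list was the longest, and the part of the rule in this order of ranks was not tested.

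Few of the sites were strong for every factor. In the Oct4 list 14 of the 574 reached the top 10% and 93 the top 25%, in the Klf4 list 2 and 10 did, and in the Sox2 list 0 and 9. Fold enrichment, as given in the authors' lists, had a median of 5.95 for Oct4, 6.39 for Sox2 and 7.76 for Klf4 at the depletion-only sites, against 5.92, 7.62 and 10.4 at the shared sites. For Oct4 the medians were nearly equal, and for Klf4 the shared sites stood higher. The 64 control-only sites had median ranks of 72.4, 72.8 and 73.1 in the control lists, which are shorter, and median fold enrichments of 5.20, 6.92 and 8.01, the last 2 above those of the depletion-only sites.

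**Figure D1:**
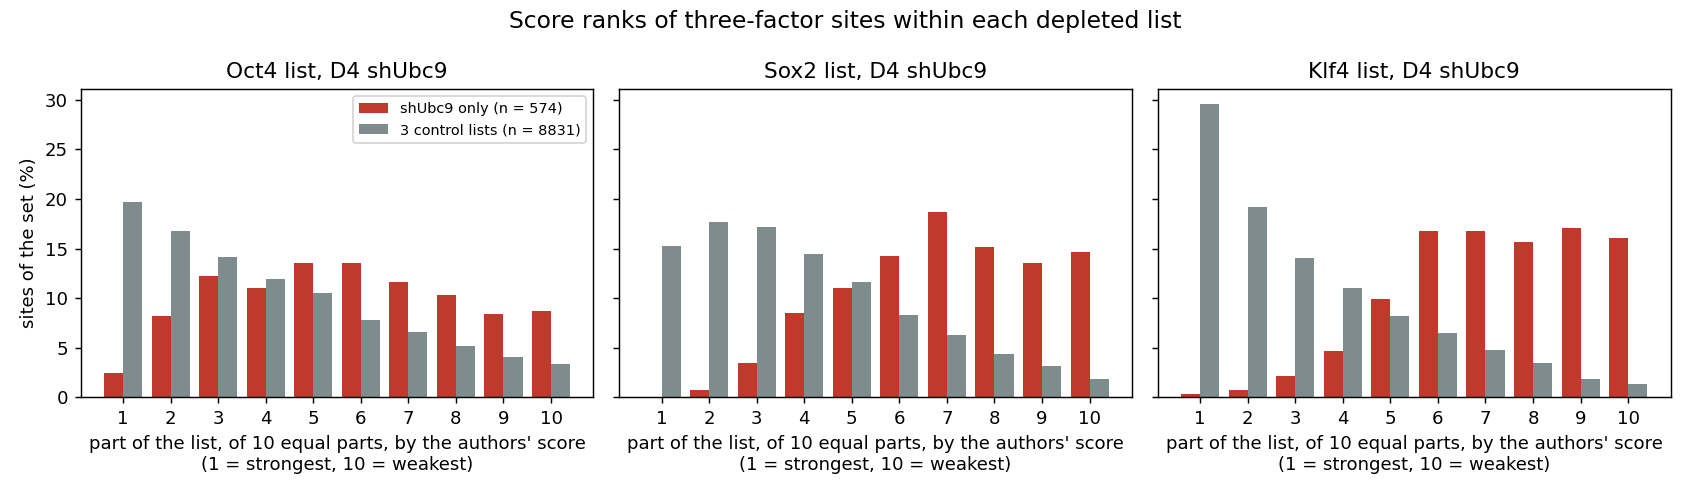
Share of sites (percent of each set, vertical axis) falling in each of 10 equal parts of the depleted Oct4, Sox2 and Klf4 lists, ordered by the authors' score from 1, strongest, to 10, weakest; red bars are the 574 depletion-only sites and grey bars the 8831 shared sites. The grey bars are tallest at the strong end of the Oct4 and Klf4 lists, while the red bars spread across the Oct4 list around a median rank of 51.0 and gather in the weaker part of the Sox2 and Klf4 lists, at medians of 67.1 and 68.7.

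The 3 factors met at nearly the same point within each site. Each of the 574 sites had its own Oct4, Sox2 and Klf4 peak. The Oct4 and Sox2 summits lay a median of 21 bp apart and within 100 bp of each other at 537 sites (93.6%). The Oct4 and Klf4 summits were a median of 27 bp apart (within 100 bp at 89.5%) and those of Sox2 and Klf4 17.5 bp (91.1%). At the shared sites these distances were 31, 32 and 24 bp, and 78.3%, 80.1% and 76.2% of summit pairs lay within 100 bp. The peaks themselves differed in width, with a median of 825 bp for the Oct4 peak of a depletion-only site against 1496 bp at shared sites and 945 bp at control-only sites, and a wider peak has more room for distant summits.

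The sites were scattered over the genome and mostly lay away from H3K4me3, the promoter mark. The nearest other depletion-only site was at a median of 1133748 bp, and only 10 sites had another within 10000 bp. The nearest site occupied in all 6 lists was at a median of 71600 bp. H3K4me3 of any condition overlapped 63 sites, 11.0% against a background of 39.6% of all depleted Oct4 peaks. The nearest such peak was at a median of 23436 bp, whereas at shared sites this distance had a median of 0. Chromosome 2 held 59 sites, 10.3% of the set against 7.94% of all depleted Oct4 peaks, and chromosome 13 held 41, 7.14% against 4.73%. Chromosome 19 held 7, 1.22% against 2.84%.

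In fibroblasts most of the depletion-only sites carried no mark of activity. H3K27ac of MEF overlapped 49 of the 574 sites, 8.54% (6.38% to 11.1%), against a background of 43.3% of all depleted Oct4 peaks, 62.6% of shared sites and 62.5% of control-only sites. H3K4me1 of MEF was at 40 sites, 6.97%, against a background of 12.0%, and H3K4me3 of MEF at 25, 4.36%, against 31.5%. Taken as any of these 3 marks, 75 sites (13.1%) were marked in MEF, where the background was 49.3%. The share with MEF H3K27ac climbed with the number of control lists a site overlapped, from 8.54% with 0 lists to 24.3% with 1, 46.6% with 2 and 62.6% with 3.

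In pluripotent cells a larger number of the same sites were marked. H3K27ac of ES was at 137 sites, 23.9% (20.4% to 27.6%), below the background of 34.8% and below the 46.5% of shared sites, but above the 15.6% of control-only sites, whose interval (7.76% to 26.9%) overlaps it. H3K4me1 of ES was at 85 sites, 14.8% (12.0% to 17.98%), above the background of 8.80%, above the 8.70% of shared sites and above the 1.56% of control-only sites (0.0396% to 8.40%). H3K4me3 of ES was at 55 sites, 9.58%, against a background of 35.8%. Any of the 3 marks was present in ES at 181 sites, 31.5%, against a background of 45.1%. The depletion-only sites therefore held more sites marked in ES than in MEF, 181 against 75, which was the reverse order of all depleted Oct4 peaks, of shared sites and of control-only sites. Sites with 1 control factor had 809 (32.4%) marked in ES and 727 (29.15%) in MEF, and ES H3K27ac at 24.2%. Their ES shares were thus close to those of the depletion-only sites, while their MEF share was higher than the 13.1% there.

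Site by site, 141 of the 574 had an active mark in ES and none in MEF, 35 had one in MEF and none in ES, 40 had one in both, and 358 had none in either. The ES-only class made up 24.6% of the set, against a background of 10.7% of all depleted Oct4 peaks. It was 14.6% of the sites with 1 control factor, 10.7% of those with 2, 7.42% of shared sites and 0% of the 64 control-only sites, which allows a share of up to 5.60%. The MEF-only class ran the other way, at 6.10% of the depletion-only sites against a background of 14.9%, and at 18.4% of the shared and 48.4% of the control-only sites.

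**Figure D2:**
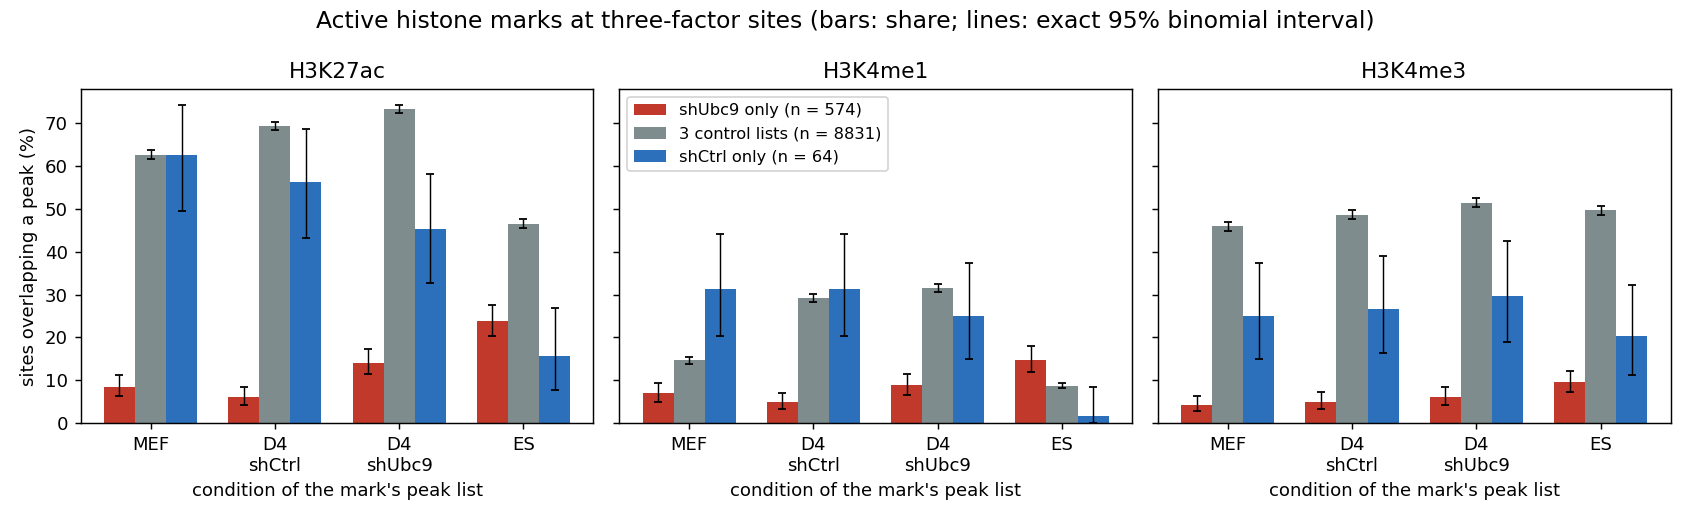
Share of sites (percent, vertical axis) overlapping a peak of H3K27ac, H3K4me1 or H3K4me3 in MEF, D4 shCtrl, D4 shUbc9 and ES; bars are the 574 depletion-only sites (red), the 8831 shared sites (grey) and the 64 control-only sites (blue), and lines are exact 95% binomial intervals, which cover counting error alone. The red bars are lowest in MEF and D4 shCtrl and highest in ES, where H3K27ac reaches 23.9% and H3K4me1, at 14.8%, stands above both other sets.

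Most of the sites with H3K27ac in ES had no H3K4me3. Of the 137 sites with ES H3K27ac, 56 also had ES H3K4me1, 40 had ES H3K4me3, and 97 had no H3K4me3 in any condition. No background is given here for these combinations, so they describe the set and do not set it apart. The ES H3K27ac peaks involved ranged over the whole list, with a median rank of 39.8 and 25 of the 137 in its top 10%. At the 49 sites with MEF H3K27ac the median rank was 48.9 and 2 were in the top 10%. ES H3K4me1 peaks had a median rank of 41.6, with 10 of 85 in the top 10%.

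MEF marking was low at every Oct4 rank. Among the 93 depletion-only sites in the strongest 25% of the Oct4 list, 3.23% had MEF H3K27ac and 0% had D4 shCtrl H3K27ac, while 26.9% had ES H3K27ac and 20.4% ES H3K4me1. The 3870 shared sites of the same Oct4 ranks had these at 49.7%, 57.9%, 40.2% and 12.3%. In the weakest 25%, MEF H3K27ac was at 10.1% of 138 depletion-only and 76.3% of 845 shared sites, and ES H3K27ac at 23.2% and 52.7%. Over the 4 equal parts of the Oct4 list ES H3K27ac was at 22.9% to 26.9% of the depletion-only sites. The order was the same in a fixed window of 250 bp on each side of the Oct4 summit, where H3K27ac was at 8.54% of the sites in MEF, 5.57% in D4 shCtrl, 13.4% in D4 shUbc9 and 23.2% in ES.

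With factor lists of equal length the contrast between the 2 condition-specific sets stayed wide for fibroblast marks. MEF H3K27ac was at 6.45% of the 248 depletion-only sites (3.73% to 10.3%) and 56.2% of the 194 control-only sites (48.9% to 63.3%). ES H3K4me1 was at 17.3% (12.8% to 22.6%) and 3.61% (1.46% to 7.29%). ES H3K27ac, by contrast, was at 25.8% of both, so its difference between the 574 and the 64 sites was not seen when the lists were the same length.

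At D4 the lists of H3K27ac come from the same comparison of shUbc9 with shCtrl cells that chose the sites, and they are given as a description. H3K27ac was at 35 of the 574 sites in shCtrl cells, 6.10% against a background of 46.3%, and at 81 in shUbc9 cells, 14.1% against 50.9%. It was in both lists at 34 sites, in shUbc9 alone at 47, in shCtrl alone at 1 and in neither at 492. The 47 sites were 8.19% of the set, and the background for H3K27ac in shUbc9 alone was 7.97% of all depleted Oct4 peaks. The single site with H3K27ac in shCtrl alone was 0.174% of the set, against a background of 3.39%. The H3K27ac lists had nearly the same length, 25719 and 25849 peaks, and trimming them to equal length left the counts at 47 and 1.

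No H3K27ac peak in either D4 list was found at 492 of the 574 sites, against 10730 of the 23477 depleted Oct4 peaks. Of the 539 sites without H3K27ac in shCtrl cells, 8.72% had it in shUbc9 cells. This share was 14.8% of the 12601 depleted Oct4 peaks without shCtrl H3K27ac, 17.0% where 1 control factor was present and 25.3% where all 3 were, so on this count the gain was less frequent at the depletion-only sites. The H3K27ac peaks of depleted cells at the depletion-only sites were weak, at a median rank of 59.3 with 4 of 81 in the top 10%, against 29.3 at the shared sites. Of the 64 control-only sites, 7 (10.9%) had H3K27ac in shCtrl alone and 0 in shUbc9 alone. Over all control Oct4 peaks these shares were 4.59% and 7.22%.

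The sites that had H3K27ac at D4 were spread over all earlier and later states. Where MEF alone had carried H3K27ac (29 sites, 5.05% of the set, background 17.2%), 11 had it in shCtrl and 20 in shUbc9 cells. Where MEF and ES both carried it (20 sites, 3.48%, background 26.1%), 14 and 16 did. Where ES alone carried it (117 sites, 20.4%, background 8.68%), 3 did in shCtrl and 15, or 12.8%, in shUbc9. Where neither carried it (408 sites, 71.1%, background 48.0%), 7 did in shCtrl and 30, or 7.35%, in shUbc9. Over all depleted Oct4 peaks, the D4 shares in shCtrl and shUbc9 were 73.3% and 73.5% where MEF alone carried H3K27ac. They were 96.0% and 96.7% where both did, 22.0% and 37.2% where ES alone did, and 14.0% and 20.4% where neither did. In each class the depletion-only sites were marked at D4 less often than this background. At the 569 shared sites with H3K27ac in ES alone the D4 shares were 36.9% and 60.1%.

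**Figure D3:**
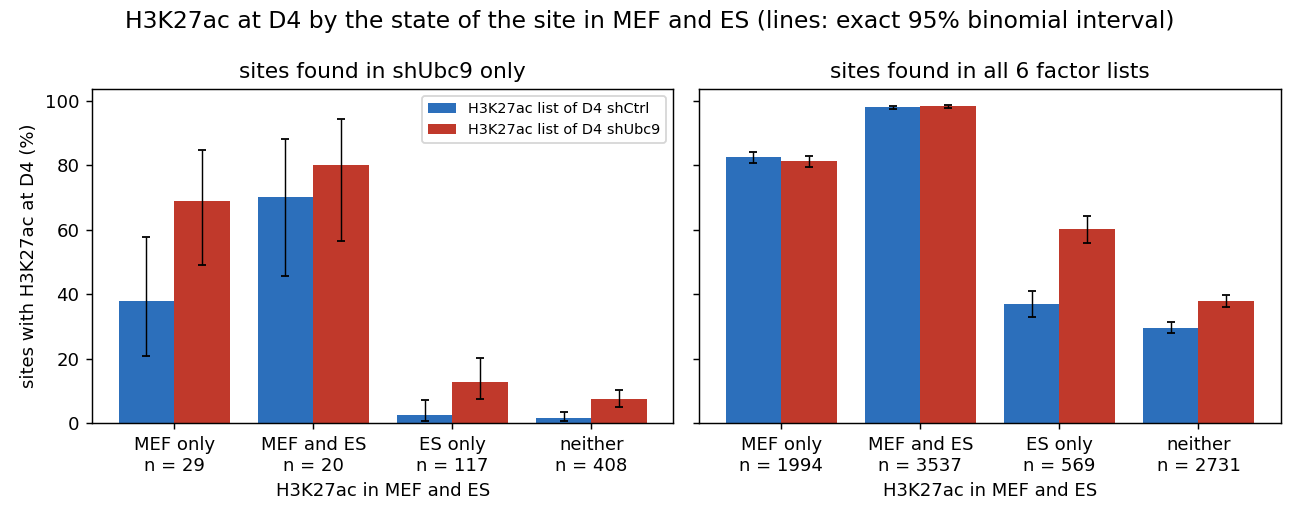
Share of sites with an H3K27ac peak at D4 (percent, vertical axis) in shCtrl (blue) and shUbc9 (red) cells, for depletion-only sites at left and shared sites at right, grouped by whether H3K27ac was called in MEF alone, in MEF and ES, in ES alone or in neither; lines are exact 95% binomial intervals. Among the depletion-only sites the groups with MEF H3K27ac are the ones most often marked at D4, and the 117 sites of the ES-only group go from 3 to 15 marked.

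H3K4me1 differed between the D4 lists at about as many sites as H3K27ac, and H3K4me3 at fewer. The 3 marks put an active mark of any kind at 57 sites in shCtrl cells (9.93%, background 53.0%) and at 110 in shUbc9 cells (19.2%, background 59.4%). H3K4me1 at D4 was at 28 sites in shCtrl cells (4.88%, background 20.0%) and 51 in shUbc9 cells (8.89%, background 23.1%), with 15 in both, 13 in shCtrl alone and 36 in shUbc9 alone. The backgrounds for the last 2 classes were 6.62% and 9.72%, against 2.26% and 6.27% here. H3K4me3 was at 29 sites in shCtrl (5.05%, background 34.1%) and 35 in shUbc9 (6.10%, background 36.4%), all 29 among the 35. The 6 sites with it in shUbc9 alone were 1.05% of the set, against a background of 2.50%, and 0 had it in shCtrl alone, against 0.141%. These 6 sites became 3 when the H3K4me3 lists were trimmed to equal length. Of the 33 sites with H3K4me3 in ES but not in MEF, 1 (3.03%) had it in shCtrl and 5 (15.2%) in shUbc9 cells, against 30.6% and 47.0% of all depleted Oct4 peaks of that class. The 22 sites with H3K4me3 in both MEF and ES all had it in both D4 lists, as did nearly all depleted Oct4 peaks of that class (99.8% and 99.9%).

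The Polycomb mark was rare. H3K27me3 was at 15 sites in MEF (2.61%, background 1.65%), 14 in D4 shCtrl (2.44%, background 2.04%), 7 in D4 shUbc9 (1.22%, background 1.75%) and 4 in ES (0.697%, 0.190% to 1.77%, below the background of 2.40%). At D4 it was in both lists at 6 sites, in shCtrl alone at 8 (1.39%, background 0.473%) and in shUbc9 alone at 1 (0.174%, background 0.183%). In any of the 4 conditions it was at 24 sites, 4.18% against a background of 4.09%.

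Heterochromatin in ES was called at few of the sites, but at a share above the background. H3K9me3 was at 15 sites in wild-type ES (2.61%, 1.47% to 4.27%, background 0.690%) and at 16 in siCtrl ES (2.79%, 1.60% to 4.49%, background 0.571%). It was at 5 in siUbc9 ES (0.871%, background 0.183%). Over all 6 lists of the mark it was at 28 sites, 4.88% (3.27% to 6.97%) against a background of 1.61%. In the 3 ES lists it was at 25 sites, 4.36% (2.84% to 6.36%) against a background of 1.10%, 1.52% of sites with 1 control factor and 0.906% of shared sites. With factor lists of equal length it was at 7 of 248 sites, 2.82% (1.14% to 5.73%), over all 6 lists and likewise over the 3 ES lists. That interval includes the 1.61% background of the 6 lists. The peaks in the wild-type list were among its stronger ones, at a median rank of 23.3, with 13 of 15 in the better-scoring 50%. In the other 2 ES lists they were weaker. Their median rank was 64.9 in siCtrl ES, with 6 of 16 in the better-scoring 50%, and 75.5 in siUbc9 ES, with 0 of 5. Even the wild-type and siCtrl ES lists, both from cells without depletion, had only 7 of these sites in common. Of the sites called in siCtrl ES, 4 were also called in siUbc9 ES and 12 were not, and 1 site was called in siUbc9 alone. Over all depleted Oct4 peaks the mark likewise was at fewer in siUbc9 ES, 43 against 134 in siCtrl ES. The siCtrl list is the longer, 21492 peaks against 18745. The counts in these 2 lists depended on the settings: siCtrl ES was at 1.21% and siUbc9 ES at 0% with factor lists of equal length, and at 1.05% and 0% with the better-scoring 50% of each H3K9me3 list, where wild-type ES was at 2.42% and 2.26%. H3K9me3 was called in MEF at 4 sites (0.697%, background 0.417%) and at D4 at 1 site in shCtrl (0.174%, background 0.145%) and 1 in shUbc9 (background 0.256%).

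SUMO was called at the depletion-only sites less often than the background in MEF and more often than the background in ES. In MEF, SUMO-1 was at 16 sites (2.79%, background 11.0%) and SUMO-2 at 22 (3.83%, background 7.94%). Either was at 26 sites, 4.53% (2.98% to 6.57%), against a background of 12.8%, 17.9% of shared sites and 46.9% of control-only sites (34.3% to 59.8%). In ES, SUMO-1 was at 33 sites (5.75%, 3.99% to 7.98%, background 2.92%) and SUMO-2 at 35 (6.10%, 4.28% to 8.38%, background 3.05%). Either was at 40 sites, 6.97% (5.02% to 9.37%), against a background of 3.69%, 3.09% of sites with 1 control factor, 4.11% of shared sites and 0 of 64 control-only sites, which allows up to 5.60%. With factor lists of equal length, either SUMO was at 4.84% of depletion-only and 36.6% of control-only sites in MEF, and at 9.27% and 1.55% in ES. SUMO was not mapped at D4, so its presence at these sites in either hairpin group was not measured.

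The 40 sites with SUMO in ES were of 2 overlapping kinds. Both SUMO-1 and SUMO-2 were called at 28 of them. An active mark of ES was present at 25 (62.5%), H3K9me3 of an ES list at 15 (37.5%) and neither at 7, so 7 sites had both. Of the 867 depleted Oct4 peaks with SUMO in ES, 677 (78.1%) had an active mark of ES and 121 (14.0%) H3K9me3. Of the 25 sites with H3K9me3 in an ES list, 15 had SUMO in ES and 12 had ES H3K27ac. In MEF, 17 of the 26 SUMO sites (65.4%) had an active mark, against 82.9% of the 2999 depleted Oct4 peaks with MEF SUMO, 0 had H3K9me3 and 9 had neither, and 2 sites had SUMO in both cell types.

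**Figure D4:**
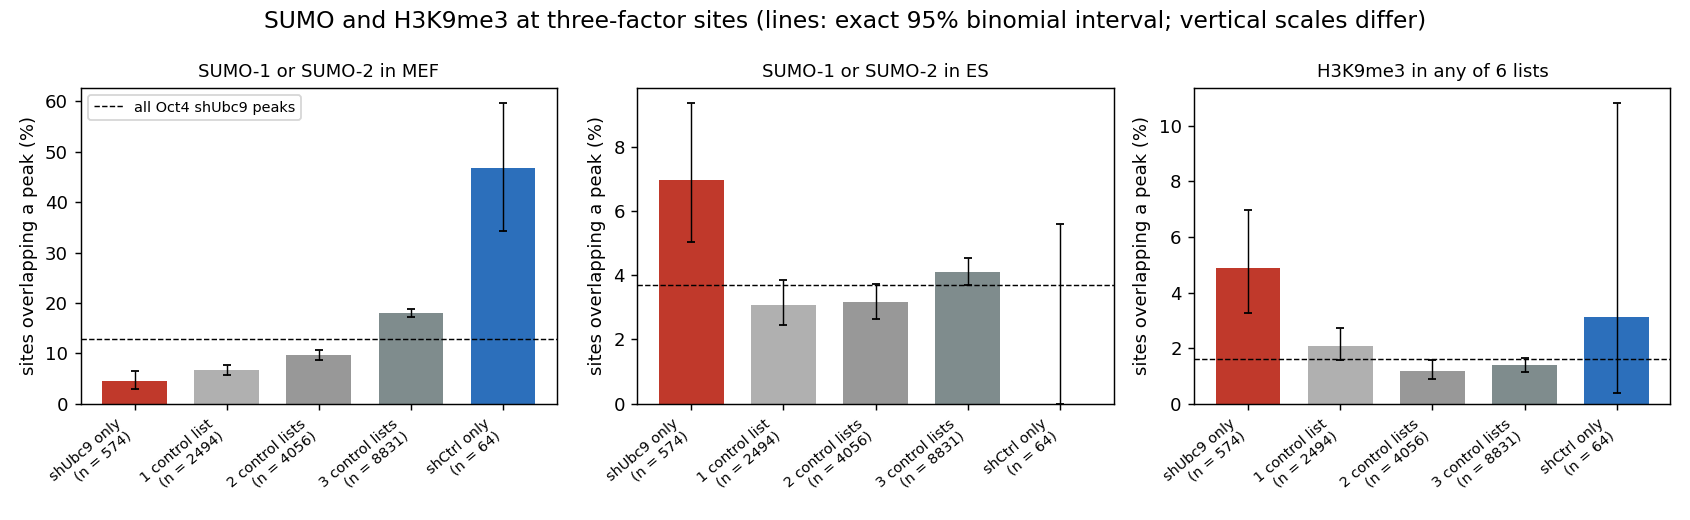
Share of sites (percent, vertical axes, whose scales differ) overlapping SUMO-1 or SUMO-2 in MEF, SUMO-1 or SUMO-2 in ES, and H3K9me3 in any of 6 lists, for the depletion-only sites (red), sites with 1, 2 or 3 control factor lists (greys) and control-only sites (blue); lines are exact 95% binomial intervals and the dashed line is the share of all depleted Oct4 peaks. MEF SUMO climbs from 4.53% at left to 46.9% at right, while ES SUMO is 6.97% at the depletion-only sites and 0 at the control-only sites.

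Across all 26 histone and SUMO lists, 283 of the 574 sites overlapped none and 291 (50.7%) overlapped at least 1, against a background of 74.7% and 89.8% of shared sites. A single list was met at 96 sites and 5 or more at 53, with 12 the most at any site.

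Individual sites show the range. The site with the best worst rank, chr16:9132860-9133525, ranked at 12.4 for Oct4, 17.0 for Sox2 and 18.1 for Klf4, lay 32253 bp from the nearest control factor peak, and carried H3K9me3 and SUMO-2 in ES and no other mark. The next, chr7:130641177-130641812, ranked at 14.1, 25.1 and 25.9 and had H3K27ac in D4 shUbc9 cells alone. A Klf4-strong site, chr11:103209139-103210931, ranked at 33.1, 31.8 and 3.72, carried SUMO-1 and SUMO-2 in ES and H3K9me3 in siCtrl ES, and lay only 159 bp from a control factor peak.

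Of the other sites in the best 8 by worst rank, chr17:28636737-28638516, chr4:137878634-137880262 and chr16:36675229-36675789 overlapped no list at all. The last of these ranked at 6.24 for Oct4 and lay 145877 bp from any control factor peak. chr13:110434248-110435128 carried H3K4me1 and H3K27ac in ES, and chr4:135140320-135141887 carried H3K4me1 in ES. The best 8 thus held 4 sites with a histone or SUMO mark in ES, 1 marked at D4 alone and 3 without any mark, and 0 of the 8 were marked in MEF.

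Sites of the other classes were drawn as the best-ranked 2 of each. chr11:97872327-97874717 carried H3K4me3 in ES alone, and chr14:76915100-76916053 carried H3K4me3 and H3K27ac in ES. chr13:105701541-105702128 carried H3K27ac, H3K9me3, SUMO-1 and SUMO-2, all in ES, 88375 bp from a control factor peak. Among the few with a fibroblast history, chr6:146740897-146742390 carried H3K4me1, H3K27ac, SUMO-1 and SUMO-2 in MEF and H3K27ac in D4 shUbc9 but not shCtrl cells, and chr15:51005551-51005896 carried H3K4me1, H3K27ac and SUMO-2 in MEF and nothing at D4 or in ES.

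The RNA of the cells in which the sites were called gives the level of the factors. Pou5f1, which encodes Oct4, had 30.1, 26.8 and 38.4 CPM (counts scaled to a common library size) in the shCtrl and 52.4, 55.9 and 43.3 in the shUbc9 libraries. The groups did not overlap, and the level was 1.59-fold higher (log2 difference 0.67, SE 0.14, edgeR quasi-likelihood test, adjusted p = 0.00295). Sox2 had 28.7, 19.2 and 28.6 CPM in shCtrl and 36.7, 28.7 and 27.5 in shUbc9 libraries, which overlap (log2 difference 0.29, edgeR adjusted p = 0.167). Klf4 was at 111 ± 14.7 and 96.6 ± 6.47 CPM (mean ± SD, log2 difference -0.20, edgeR adjusted p = 0.119, n = 3 each) and Myc at 66.0 ± 11.4 and 77.6 ± 3.01 (0.24, edgeR adjusted p = 0.109). The background of genes called in either direction was 53.2% of 17001 tested, so a call alone sets no gene apart. Counts of these 4 genes may include transcripts of the introduced factors, which could not be told apart from those of the endogenous genes, and whether the Oct4 RNA difference bears on the sites was not tested.

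Partners of the factors moved in both directions by the same edgeR test. Its background was 27.2% called upward and 26.1% downward, around a median log2 difference of -0.0056 over everything tested. Of 10 partners of the pluripotency network, 5 passed the filter on low counts (median 0.67). Nanog (0.404 to 0.854 CPM) and Sall4 (0.149 to 0.812) rose from very low levels, Tfcp2l1 (2.32 to 1.58) and Tbx3 (17.8 to 11.9) fell, and Zfp42 was at 0.396 and 0.682 without a call. Markers of cell types moved as well. All 6 fibroblast genes fell (median -0.60, summed 24489 to 35875 CPM in shCtrl and 17028 to 19077 in shUbc9 libraries), all 5 macrophage genes rose (median 0.51, summed 37.8 to 38.4 and 60.4 to 62.1), and of 5 epithelial genes (median 0.15) Epcam and Cldn4 rose and Krt18 fell. Of 6 pluripotent cell markers, 2 passed the filter and Nanog rose, with the summed level at 0.768 to 1.22 CPM in shCtrl libraries and at 1.31, 4.64 and 6.18 in shUbc9 replicates 1, 2 and 3. Replicate 1 stood apart: Esrrb was at 0.0469, 0.81 and 0.835 CPM in these 3 libraries, Dppa5a at 0.0469, 1.16 and 1.59, and Tdgf1 at 0.117, 0.945 and 1.42, while the shCtrl libraries had at most 0.107, 0.0269 and 0.134. In such bulk samples a peak in more cells and a stronger peak per cell cannot be told apart, and the part of cell composition in the depletion-only sites was not tested.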

How the data were processed

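The authors deposited 32 peak lists on mm9, 1 per antibody and condition from merged replicates per the series design. By the column order of the peak format, each deposited file gives a score, a fold enrichment, and −log10 p and q values as deposited by the authors; the deposited peak summit is an offset in bp. The score is 10 times the −log10 p, rounded down. The authors' RNA table is a raw read count per gene. The submitters' processing notes name Bowtie, MACS2, bedtools 2.19.1, STAR 2.5.0a, featureCounts and DESeq2, with Bowtie2 for the siCtrl and siUbc9 ES samples; their peak thresholds are not stated there. H3K27me3 lists in MEF and ES had 5683 and 1752 repeated lines, which were removed.

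Overlaps of at least 1 bp, ranks and distances were computed in Python 3.11.15 and tested on simulated intervals, as the count test was on simulated counts. D4 counts (25125336 to 56590370 per library) were fitted in R 4.3.3 with edgeR 4.0.16 (filterByExpr minimum count 10, TMM, quasi-likelihood, Benjamini-Hochberg over all genes, adjusted p under 0.05), and DESeq2 1.42.0 was run beside it. Gene symbols came from a GRCm38 name table. Members and lists were chosen with earlier results of these data known. Named sites are the 8 with the best worst rank, the best 2 of each chromatin class, and 3 on either side of the rule's edge. No mm9 sequence or gene annotation was used here, so no gene or sequence is assigned to a site. The RNA of some genes is not reported here.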

Additional observations from a re-analysis of the deposited data

How the results depend on the processing

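The higher share of ES H3K27ac at depletion-only than at control-only sites was not seen with factor lists of equal length (25.8% each). H3K9me3 of siUbc9 ES and of both D4 groups was at 0% of the sites with equal factor lists and with the better-scoring 50% of each mark list. For siUbc9 ES, 0 of 248 sites with equal factor lists allows up to 1.48%. That range covers both the main share of 0.871%, from 5 sites, and the background of 0.183%. Whether the excess over the background in siUbc9 ES holds at these settings therefore cannot be told. The depletion-only and control-only counts were 574 and 64, 248 and 194 with lists of equal length, and 28 and 2 with the better-scoring 50% of the lists that call the sites. Among the shares, the better-scoring 50% of each mark list gave ES H3K4me1 8.36%, H3K27ac 4.36% in MEF, 3.31% in D4 shCtrl, 5.05% in D4 shUbc9 and 14.3% in ES, SUMO-2 1.92% in MEF, and SUMO-1 3.48% and SUMO-2 3.83% in ES, since fewer peaks are left to overlap. Requiring 50% of the Oct4 peak to be covered gave ES H3K4me1 10.8% and D4 shUbc9 H3K27ac 11.1%. No background is given here for either of these settings, so such shares cannot be set against the backgrounds of the main setting. The 248 sites of equal lists, an alternative added after seeing the data as was the fixed window, gave H3K27ac 4.03% in D4 shCtrl and 10.9% in D4 shUbc9, and SUMO-2 8.87% in ES. The cause of the shifts with equal lists was not tested.

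For RNA, 1 of the 4 factor genes, Pou5f1, was called, and 3 were with scaling by library size alone, where Sox2 (log2 difference 0.37, adjusted p = 0.034) and Myc (0.32, adjusted p = 0.0163) also passed edgeR's threshold. That scaling gave 5312 genes higher and 3523 lower, against 4622 and 4429. Leaving out 1 library at a time gave 1 to 2 of the 4 called and 7281 to 8937 genes called, and without D4 shCtrl replicate 2 Klf4 was called (log2 difference -0.29, edgeR adjusted p = 0.0157). With a replicate block 1 of the 4 and 7497 genes were called. The numbers do not pair the samples, as the same-numbered libraries' deviations correlated at -0.14, -0.50 and -0.39. The comparison of RNA at the nearest genes, with its distance and block alternatives, was not run, because no gene annotation of mm9 was used here. ChIP depth is unknown and each list merges its replicates, so no interval here covers variation between cultures.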
